A study of Homo sapiens with 6 samples.

Results

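The 10 genes described here are FOS, FOSB, FOSL1, FOSL2, JUN, JUNB, JUND, EGR1, NR4A1 and NR4A2, found by their symbols among the 23062 identifiers listed for every library. They were chosen as the FOS and JUN families with EGR1, NR4A1 and NR4A2, with earlier results of these data known. RNA was sequenced in 6 libraries of DU145, a human prostate cancer cell line established from a brain metastasis, wild type by its label. The 3 control libraries came from cells kept in MEM medium for 48 h, and the 3 others from cells given 56 µM taraxasterol (TAX), a plant triterpene, for 48 h, a dose labelled as the IC50. All cells grew with fetal bovine serum. TAX came as a DMSO solution, and a DMSO control is not named, so the solvent and TAX cannot be told apart. The numbers 1 to 3 of the labels are not said to mark separate cultures, and p-values then measure only the spread between these libraries.

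FOS proteins pair with JUN proteins, or JUN proteins with each other, through a leucine zipper to form AP-1, a transcription factor that binds the same short DNA site in many combinations. FOS, FOSB, JUN, JUNB, EGR1 and the NR4A genes are immediate early genes, which growth factors, serum and stress switch on within minutes and which are switched off again soon after, while FOSL1, FOSL2 and JUND are expressed more steadily. EGR1 is a zinc finger factor, and NR4A1 and NR4A2 are nuclear receptors without a known natural ligand. In carcinoma cells AP-1 is known for driving genes of proliferation and invasion.

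In comparison with control cells, EGR1, NR4A1, NR4A2 and JUNB were lower in all TAX libraries than in any control library, and FOSL1 was higher in every TAX library. FOSL2, JUN and JUND differed by less than the spread between replicates. None of the 10 genes passed an adjusted p under 0.05 (limma, Benjamini-Hochberg over 12359 genes), a threshold that 0.477% of all tested genes passed. At an unadjusted p under 0.05, 5 of the 9 members that passed the filter on low values were lower (FOS, JUNB, EGR1, NR4A1 and NR4A2), beside 2.41% of all tested genes, and 1 was higher (FOSL1), beside 7.73%. Complete separation of the groups with lower TAX values was found for 4 of the 9, beside 3.34% of tested genes, and with higher TAX values for 1, beside 14.6%. Because the members were chosen with earlier results known, and most of them varied together, these counts are a description and no test of the list. The median log2 fold change of the 9 genes was -0.33, while that of all tested genes was 0.054. With control replicate 2 left out, 3 of the 9 were lower and 1 higher at an unadjusted p under 0.05. The shares of all tested genes were then 2.18% and 11.1%, and the medians -0.18 for the 9 genes and 0.078 for all. Differences are given as log2(FPKM + 1), which understates the change of genes with low FPKM, and an exact permutation test (two-sided) over 3 and 3 libraries cannot give a p below 0.1. Since bulk RNA was sequenced, fewer cells with a transcript and less transcript per cell cannot be told apart.

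The deposited values were taken as FPKM, fragments scaled to transcript length and library total, and their sums lay between 322483 and 363724 per library. The number of reads is unknown. Epithelial markers were present in all libraries (5 of 5 genes, summed FPKM 428 to 546 in control and 555 to 606 in TAX-treated cells), while KLK3, KLK2 and TMPRSS2, markers of prostate luminal cells, stayed below 0.1 FPKM. Fibroblast and endothelial markers stayed below 0.1 FPKM but for COL1A1 (1.42 to 2.08). Of 5 leukocyte markers, PTPRC, CD3E and LYZ did too, CD79A did not exceed 0.198 FPKM, and CD68 reached 20.0 to 33.4 FPKM, so that the leukocyte sum was 20.1 to 26.9 in control and 32.65 to 33.6 in TAX-treated cells. Control replicate 2 had the highest value of the 6 libraries in 9 of the 10 members, and in 19.4% of all tested genes. Mitochondrially encoded genes held 11.2% of its FPKM, against 15.8% and 14.2% in control replicates 1 and 3 and 11.2% to 12.0% in the TAX libraries. Their part in the results was not tested, and the difference of each member is given with and without that library.

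**Figure D1:**
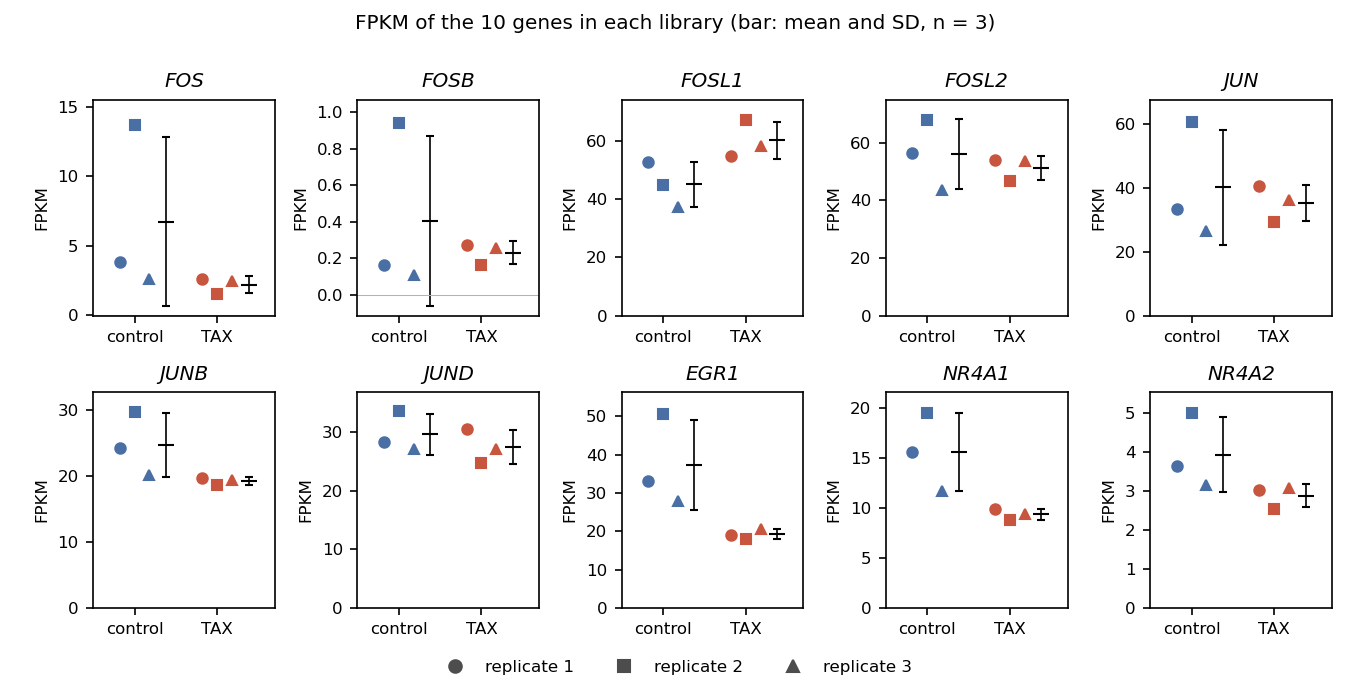
FPKM of each of the 10 genes (vertical axes, linear and from 0, or just below it where an error bar crosses it) in the 3 control libraries (blue) and the 3 TAX libraries (red). The shape of a point gives the replicate and the bars the mean and SD (n = 3). Control replicate 2 (blue square) is the highest point in 9 panels, FOSL1 being the exception, and the blue and red points of EGR1, NR4A1, NR4A2, JUNB and FOSL1 do not overlap.

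EGR1 (ENSG00000120738, chromosome 5 from 138465490 to 138469315, plus strand, GENCODE 29 on GRCh38) had the smallest p of the members and ranked 71 among all tested genes. The FPKM of EGR1 was 33.2, 50.5 and 28.0 in control libraries 1, 2 and 3, and 19.1, 18.1 and 20.7 in the TAX libraries 1, 2 and 3. The highest TAX value lay below the lowest control value, and the TAX libraries were close to each other. The means were 37.2 ± 11.8 and 19.3 ± 1.31 FPKM (SD, n = 3 each), a ratio of 0.518. The log2 fold change of EGR1 was -0.87 (standard error, SE, 0.17, adjusted p = 0.0731 from limma, exact permutation test, two-sided p = 0.1). Without control replicate 2 the difference was smaller but its spread was smaller too, with a log2 fold change of -0.64 (SE 0.10, adjusted p = 0.0406 from limma). After quantile normalization or centring of each library on its median, EGR1 also passed (adjusted p = 0.0432 and 0.0444 from limma), and over all 13 alternatives its adjusted p ranged from 0.0406 to 0.328.

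NR4A1 (ENSG00000123358, chromosome 12 from 52022832 to 52059507, plus strand), also called Nur77, had 15.6, 19.4 and 11.7 FPKM in the control and 9.91, 8.82 and 9.33 FPKM in the TAX libraries. The groups did not overlap, and the TAX values lay within a range of 1.12-fold, the control values within 1.66-fold. NR4A1 had a log2 difference of -0.65 (SE 0.14, adjusted p = 0.116 from limma, exact permutation test, two-sided p = 0.1), and -0.49 without control replicate 2 (SE 0.12, adjusted p = 0.170). Without control replicate 3 its adjusted p was 0.0405, and after quantile normalization and median centring it was 0.0432 and 0.0414 (limma), with a range of 0.0405 to 0.372 over all alternatives. NR4A2 (ENSG00000153234, chromosome 2 from 156324432 to 156342348, minus strand), or Nurr1, was listed at 3.66, 5.01 and 3.16 FPKM in control libraries and 3.02, 2.55 and 3.08 FPKM under TAX. Its groups were separated only narrowly, by the gap between control replicate 3 and TAX replicate 3. The log2 fold change of NR4A2 was -0.33 (SE 0.13, adjusted p = 0.427, unadjusted p = 0.0259 from limma), and -0.18 without control replicate 2 (unadjusted p = 0.109 from limma). The third gene of the family, NR4A3, also lay lower in every TAX library, with 6.98, 6.73 and 5.40 FPKM in control libraries and 4.77, 3.68 and 4.72 FPKM under TAX. Here control replicate 2 was not the highest, and the log2 fold change was -0.45 (SE 0.11, adjusted p = 0.177 from limma) and -0.41 without that library. EGR2, the closest relative of EGR1, named here after its values were seen, stayed below the filter, with 0.486, 0.877 and 0.420 FPKM in control libraries and 0.269, 0.164 and 0.197 FPKM under TAX. EGR3 and EGR4 did not exceed 0.088 FPKM in any library, and the groups of each overlapped.

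FOS (ENSG00000170345, chromosome 14 from 75278774 to 75282230, plus strand) encodes a classical partner of JUN in AP-1. Its FPKM was 3.80, 13.7 and 2.61 in the control and 2.62, 1.49 and 2.48 in the TAX libraries. Control replicate 2 stood 5.25-fold above control replicate 3, and control replicate 3 was level with TAX replicate 1, so that the groups overlapped. The log2 fold change of FOS was -1.01 (SE 0.40, adjusted p = 0.441, unadjusted p = 0.0311 from limma, exact permutation test, two-sided p = 0.2). Without control replicate 2 it was -0.40 (SE 0.17, unadjusted p = 0.0424 from limma), and the ratio of the means went from 0.328 to 0.686. The unadjusted p of FOS was under 0.05 in 11 of the 13 alternatives. It was 0.0878 without TAX replicate 2 and 0.0946 with no filter (limma). FOSB (ENSG00000125740, chromosome 19 from 45467995 to 45475179, plus strand) was the only member below the filter of 1 FPKM in at least 3 libraries. FOSB had 0.159, 0.939 and 0.105 FPKM in the control and 0.272, 0.161 and 0.258 FPKM in the TAX libraries. Control replicate 2 lay above all TAX values, and the other control values lay below them. FOSB lies within ERCC1 on the opposite strand, which had 12.9 to 17.3 FPKM in control and 17.5 to 19.1 FPKM in TAX-treated cells, and 0 of its bases are exonic in both genes. Added to the tested genes, its log2 fold change was -0.14 (SE 0.18, adjusted p = 0.802 from limma), which turned to 0.12 without control replicate 2.

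FOSL1 (ENSG00000175592, chromosome 11 from 65892049 to 65900573, minus strand), which encodes FRA1, went the other way. The FPKM of FOSL1 was 52.9, 44.9 and 37.3 in control libraries 1, 2 and 3, and 55.0, 67.1 and 58.4 in the TAX libraries 1, 2 and 3. All TAX values were above all control values, although control replicate 1 and TAX replicate 1 were close. The means were 45.0 ± 7.81 and 60.1 ± 6.27 FPKM (SD, n = 3 each), with a log2 fold change of 0.42 (SE 0.13, adjusted p = 0.270, unadjusted p = 0.00717 from limma, exact permutation test, two-sided p = 0.1). Control replicate 2 did not decide this difference, which was 0.42 without it as well (unadjusted p = 0.0151 from limma). With 1 library left out, the log2 fold change of FOSL1 ranged from 0.29 (without control replicate 3) to 0.54 (without control replicate 1). FOSL2 (ENSG00000075426, chromosome 2 from 28392448 to 28417312, plus strand), which encodes FRA2, had 56.2, 67.9 and 43.5 FPKM in the control and 53.9, 46.5 and 53.5 FPKM in the TAX libraries. The values were mixed between groups, and the log2 fold change of -0.10 had a 95% confidence interval from -0.41 to 0.21 (adjusted p = 0.821 from limma). Without control replicate 2 the log2 fold change of FOSL2 was 0.048.

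Among the JUN genes, JUNB (ENSG00000171223, chromosome 19 from 12791496 to 12793315, plus strand) had 24.2, 29.7 and 20.1 FPKM in the control and 19.7, 18.5 and 19.4 FPKM in the TAX libraries. The groups did not overlap, but control replicate 3 lay close to the TAX values, which were within 1.06-fold of each other. For JUNB the log2 fold change was -0.33 (SE 0.12, adjusted p = 0.406, unadjusted p = 0.0208 from limma), and -0.19 without control replicate 2 (unadjusted p = 0.0843 from limma). JUNB lies within HOOK2 on the opposite strand, and 259 of its 1820 exonic bases are exonic in HOOK2 too. Whether reads were counted by strand, which bears on FOSB and JUNB alike, is not given in the sources used here, and HOOK2 itself had 7.83 to 10.9 FPKM in control and 8.39 to 8.67 FPKM in TAX-treated cells. JUN (ENSG00000177606, chromosome 1 from 58780788 to 58784327, minus strand) was listed at 33.3, 60.6 and 26.6 FPKM in control libraries and 40.5, 29.2 and 36.2 FPKM under TAX. All 3 TAX values lay between the control extremes. The log2 fold change of JUN was -0.11 (95% confidence interval -0.64 to 0.42, adjusted p = 0.893 from limma), and its sign depended on control replicate 2, without which it was 0.22 (interval -0.093 to 0.54), and on TAX replicate 2, without which it was 0.017. JUND (ENSG00000130522, chromosome 19 from 18279760 to 18281622, minus strand) varied least between the control libraries on the log2 scale, with 28.3, 33.6 and 27.0 FPKM in the control and 30.5, 24.7 and 27.0 FPKM in the TAX libraries. Its log2 fold change was -0.11, with an interval from -0.34 to 0.13 (adjusted p = 0.743 from limma), and -0.017 without control replicate 2. The groups overlapped.

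**Figure D2:**
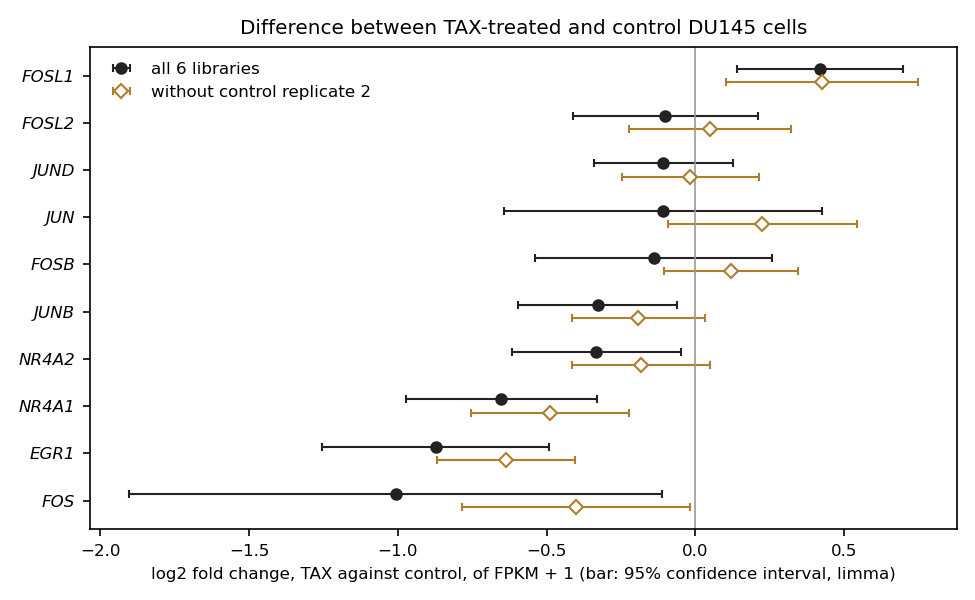
Log2 fold change of FPKM + 1, TAX against control, for the 10 genes (horizontal axis), with 95% confidence intervals from limma, for all 6 libraries (black circles) and without control replicate 2 (open diamonds). EGR1 and NR4A1 stay below 0 and FOSL1 above 0 both ways, while FOS moves from -1.01 to -0.40 and the intervals of JUNB and NR4A2 reach 0 once that library is left out.

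Because FPKM is scaled to length, levels can be set against each other. In control cells the order by mean FPKM was FOSL2, FOSL1, JUN, EGR1, JUND, JUNB, NR4A1, FOS, NR4A2 and FOSB. The ranges of neighbours in this order overlapped except between JUNB and NR4A1 and between NR4A2 and FOSB. In TAX-treated cells FOSL1 stood first, apart from FOSL2 in all 3 libraries, and EGR1 was the fifth, level with JUNB (19.3 and 19.2 FPKM). The full order under TAX was FOSL1, FOSL2, JUN, JUND, EGR1, JUNB, NR4A1, NR4A2, FOS and FOSB, and neighbours overlapped between JUN and JUND, EGR1 and JUNB, and NR4A2 and FOS. The FOS family was thus made mostly of FOSL1 and FOSL2 transcripts in these cells. The share of FOSL1 in the summed FPKM of the 4 FOS genes was 46.8%, 35.2% and 44.6% in control libraries 1, 2 and 3, and 49.2%, 58.2% and 50.9% in the TAX libraries 1, 2 and 3. Every TAX share was above every control share, with a difference of 10.6 percentage points (exact permutation test, two-sided p = 0.1), or 7.06 without control replicate 2. The share of FOS was 3.36%, 10.8% and 3.13% in control and 2.34%, 1.29% and 2.17% in TAX-treated cells, and here too the groups did not overlap, with a difference of -3.81 percentage points (p = 0.1, exact permutation test), or -1.31 without control replicate 2. FOSL2, whose FPKM overlapped between groups, had shares of 49.7%, 53.3% and 52.1% in control and 48.3%, 40.3% and 46.7% in TAX-treated cells. These shares did not overlap, with a difference of -6.61 percentage points (p = 0.1, exact permutation test), -5.83 without control replicate 2 and -4.23 without TAX replicate 2. Shares within a family add up to a fixed total, so the lower shares of FOS and FOSL2 and the higher share of FOSL1 are not separate results. The FPKM of FOS, unlike its share, overlapped between groups. The sum of the 4 genes was 108 ± 22.4 FPKM in control libraries and 114 ± 1.85 FPKM under TAX (SD, n = 3 each), values that overlapped. In the JUN family the shares of JUN, JUNB and JUND all overlapped between groups, with means of 41.3%, 26.5% and 32.2% in control and 42.9%, 23.6% and 33.5% in TAX-treated cells.

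**Figure D3:**
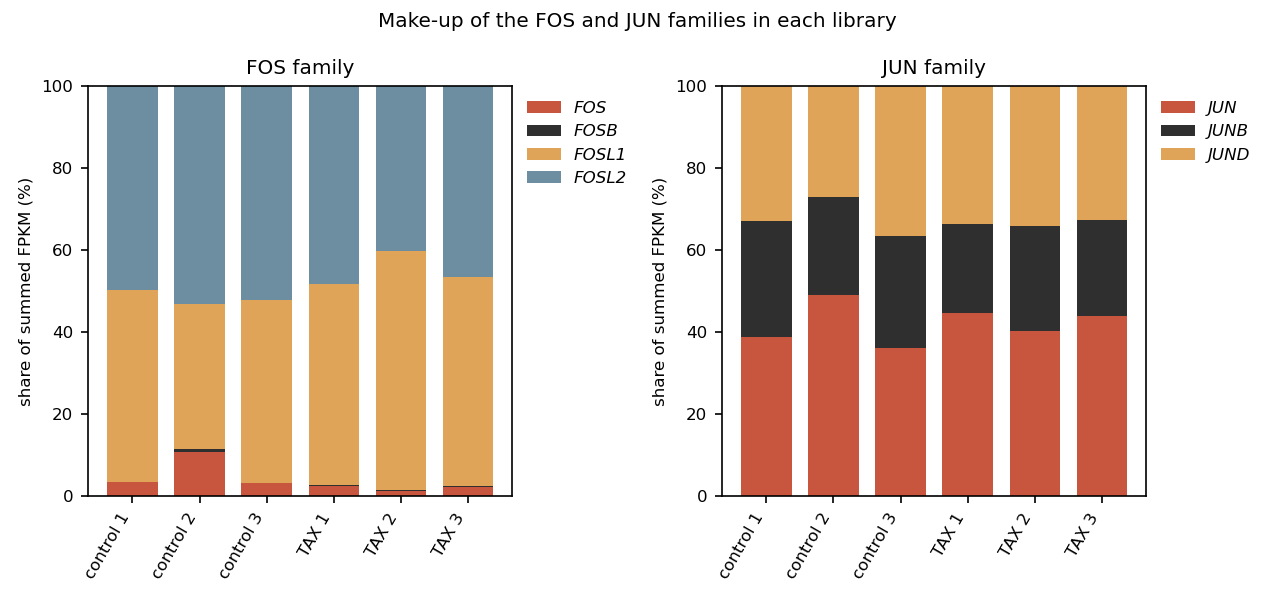
Share of each gene in the summed FPKM of its family (vertical axis, percent), for the FOS family (left) and the JUN family (right), in each of the 6 libraries. FOSL1 takes 35.2% to 46.8% of the FOS family in the control bars and 49.2% to 58.2% in the TAX bars, and FOS is visibly larger in control replicate 2 (10.8%) than elsewhere.

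The promoters of EGR1, FOS, JUNB and JUND are shown because the first 3 genes lay lower in TAX-treated cells at an unadjusted p under 0.05 while JUND did not. They are taken from RefSeq (GRCh38.p14), start 250 bases before the RefSeq transcription start and end before the start in RefSeq or GENCODE 29, whichever comes first. Sequences run 5′ to 3′ on the strand of the gene, and capitals mark matches to the motifs below.
EGR1, chr5:138465229-138465478, plus strand: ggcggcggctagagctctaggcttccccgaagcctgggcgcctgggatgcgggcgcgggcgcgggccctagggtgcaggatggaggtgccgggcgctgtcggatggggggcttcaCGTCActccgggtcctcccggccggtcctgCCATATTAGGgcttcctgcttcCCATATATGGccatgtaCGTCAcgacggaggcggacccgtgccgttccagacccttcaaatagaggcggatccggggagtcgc
FOS, chr14:75278578-75278773, plus strand: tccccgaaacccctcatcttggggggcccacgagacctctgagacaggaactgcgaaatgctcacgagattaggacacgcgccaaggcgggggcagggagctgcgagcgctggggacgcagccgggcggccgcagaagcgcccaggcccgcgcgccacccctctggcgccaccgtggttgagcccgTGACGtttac
JUNB, chr19:12791236-12791485, plus strand: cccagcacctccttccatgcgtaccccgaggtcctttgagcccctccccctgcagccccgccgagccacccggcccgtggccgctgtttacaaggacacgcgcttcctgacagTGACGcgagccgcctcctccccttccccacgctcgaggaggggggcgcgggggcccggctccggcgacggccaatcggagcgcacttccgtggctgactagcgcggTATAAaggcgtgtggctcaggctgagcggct
JUND, chr19:18281623-18281872, minus strand: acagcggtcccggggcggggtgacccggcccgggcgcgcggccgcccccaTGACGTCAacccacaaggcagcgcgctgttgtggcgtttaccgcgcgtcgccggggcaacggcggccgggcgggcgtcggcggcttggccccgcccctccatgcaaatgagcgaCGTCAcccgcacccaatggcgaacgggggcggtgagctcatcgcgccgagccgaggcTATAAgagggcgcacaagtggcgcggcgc

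Searched on both strands were the CArG box of serum response factor (by name), the cAMP response element TGACGTCA (CRE) and its core TGACG, which a full CRE holds on each strand, the AP-1 site TGACTCA, the EGR1 sites GCGTGGGCG and GCGGGGGCG, and TATAA. RefSeq windows were found for 8 of the 10 members, and FOSL1 and NR4A2 are named only. In the 250 bases before the start, EGR1 was the only one of the 8 with a CArG box. It held 2, at -105 to -96 and at -83 to -74, where 1.16% of 35116 promoter windows hold at least 1. Bases further upstream were not searched, in FOS or any other gene. A CRE core was found in EGR1, FOS, FOSB, FOSL2, JUN, JUNB and JUND and in 21.2% of all windows. JUND was the only one with a full CRE, at -200 to -193, which 1.65% of windows hold. TATAA was found in FOS, FOSB, JUNB and JUND, and in 18.9% of all windows. The TATAA of FOS lies past the end of the printed stretch. None of the windows held the AP-1 or EGR1 sites, which occur in 4.2% and 5.37% of windows, and both windows of NR4A1 held no match at all. FOS, EGR1 and JUNB thus held the CRE core as JUN and JUND did, and the 2 windows of NR4A1 did not. These begin at 52022582 and 52037465, and the rest of NR4A1, which ends at 52059507, was not searched. A match is no evidence of binding in DU145 cells, nor is the lack of one evidence against it.

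**Figure D4:**
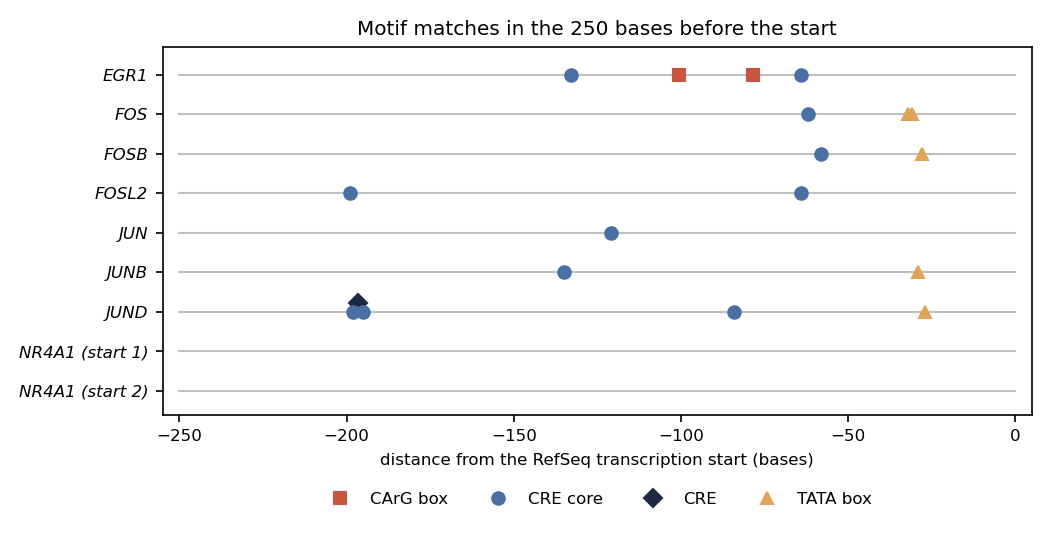
Motif matches on either strand (symbols, placed at their centre) in the 250 bases before the RefSeq start of the 8 members with a window, with both starts of NR4A1 (horizontal axis, distance in bases). The pair of CArG boxes is seen in EGR1, the CRE (drawn above the line) in JUND, and no symbol on either NR4A1 line.

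Most members other than FOSL1 varied together. Over the 6 libraries Pearson's r of log2(FPKM + 1), given as a description, was 0.98 between EGR1 and NR4A1 and 0.986 between FOS and NR4A2, and r of FOSL1 with the other 9 genes lay between -0.619 and -0.00971. For the deviations from the group means, r of FOS was 0.87 to 0.989 with the 8 members other than FOSL1, and 0.0537 with FOSL1. All libraries share their handling and scaling, and control replicate 2 weighs heavily in these values. Without it, r was 0.288 between FOS and JUN and -0.00119 between FOS and FOSB, but 0.99 between FOS and NR4A2 and 0.955 between EGR1 and NR4A1.

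Among the other immediate early genes, PHLDA1, a regulator of cell survival, rose in TAX-treated cells. Of 37 genes on the list 30 were tested, of which 1 passed the adjusted threshold, beside 0.477% of all tested genes. At an unadjusted p under 0.05, 4 were higher and 2 lower (ZFP36 and BTG2), beside 7.73% and 2.41% of all tested genes. The median log2 fold change of the 30 genes was 0.063, which lay 0.0089 above that of all genes tested, and 0.14 above it without control replicate 2. The FPKM of PHLDA1 was 33.5, 37.9 and 31.3 in control and 50.6, 52.1 and 50.6 in TAX-treated cells. The groups were far apart, with a log2 fold change of 0.57 (SE 0.087, adjusted p = 0.0275 from limma), and the adjusted p stayed under 0.05 in 6 of the 13 alternatives, with a range of 0.0140 to 0.122. When 1 library was left out it stayed under 0.05 only without control replicate 2 (log2 fold change 0.64, adjusted p = 0.0258 from limma), and PHLDA1 lost its call without any of the other 5. DUSP5, a phosphatase of nuclear ERK, had 29.7, 44.9 and 26.0 FPKM in control libraries and 49.3, 42.7 and 49.2 FPKM under TAX. Here control replicate 2 alone overlapped with the TAX libraries, and the log2 fold change went from 0.51 (adjusted p = 0.335 from limma) to 0.74 without it (adjusted p = 0.0264 from limma). KLF6, a zinc finger factor, was higher (log2 fold change 0.35, adjusted p = 0.350 from limma) and ZFP36, which destabilizes mRNAs, was lower (-0.32, adjusted p = 0.379 from limma). Control replicate 2 was the highest of the 6 libraries in 22 of the 30 genes, and without it 13 were higher and 0 lower at an unadjusted p under 0.05, beside 11.1% and 2.18% of all tested genes.

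**Figure D5:**
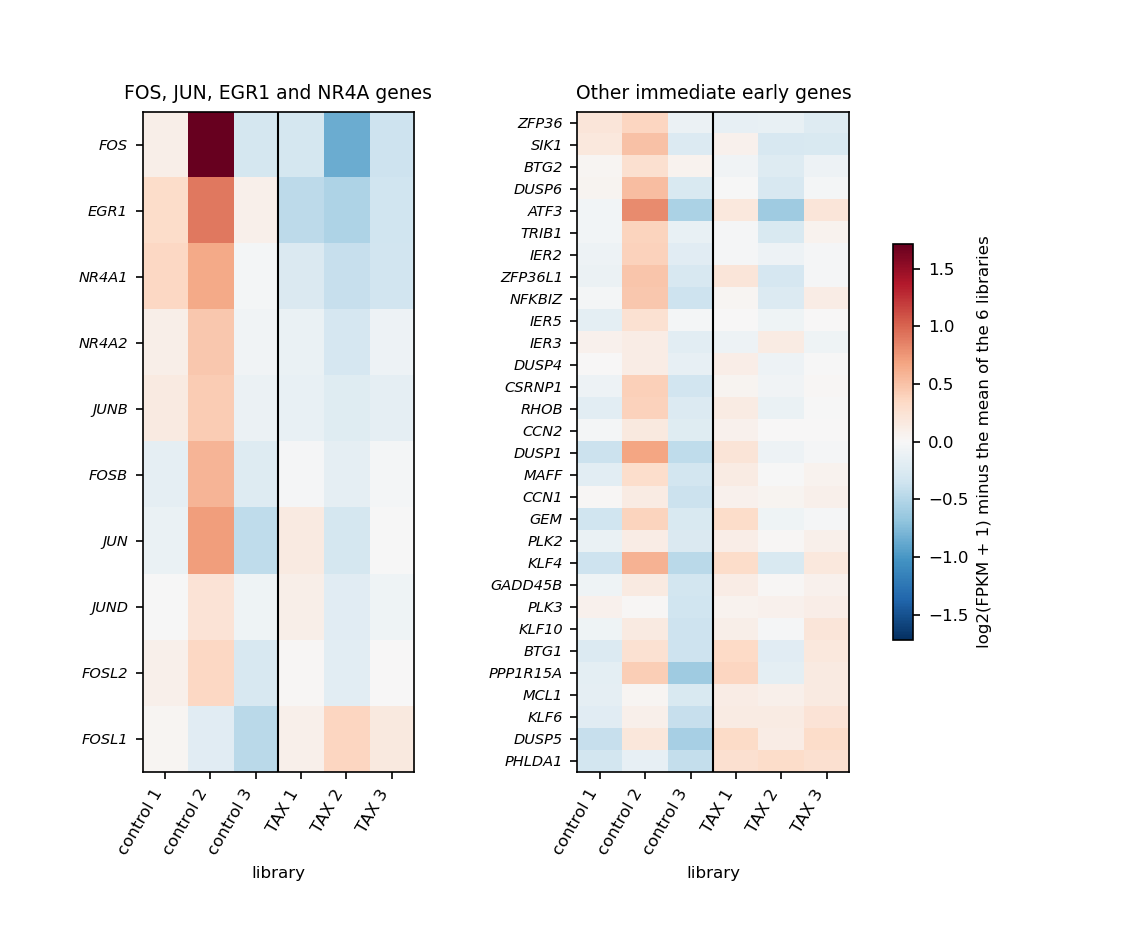
Log2(FPKM + 1) minus the mean of the 6 libraries (colour, red above and blue below the mean) for the 10 genes (left) and the 30 tested genes of the list of other immediate early genes (right), in each library (horizontal axis). The column of control replicate 2 is the highest in 9 of the 10 and in 22 of the 30 genes, and PHLDA1 and FOSL1 at the bottom are higher in all 3 TAX libraries than in all 3 control libraries.

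Few factors that act before or beside these genes passed the tests. Of 25 upstream factors and kinases, all tested, 1 rose and 0 fell past the adjusted threshold, beside 0.477% of all tested genes. The gene that rose was ELK3, an ETS factor that partners serum response factor. The FPKM of ELK3 was 17.9, 19.4 and 16.9 in control libraries and 25.5, 25.0 and 25.2 under TAX. Its log2 fold change was 0.46 (SE 0.079, adjusted p = 0.0378 from limma), under 0.05 in 5 of the 13 alternatives, with a range of 0.0205 to 0.163. Of the fits that leave out 1 library, ELK3 passed only in that without control replicate 2 (adjusted p = 0.0451 from limma). The kinases MAP2K1, MAPK9 and MAPK8 had log2 fold changes of 0.29, 0.18 and 0.13 and did not pass (adjusted p = 0.395, 0.529 and 0.622 from limma). Of 14 AP-1 partners outside the FOS and JUN families 9 were tested. At an unadjusted p under 0.05, 0 passed, beside 7.73% (higher) and 2.41% (lower) of all tested genes. Without control replicate 2 the count was 3, all of them higher, beside 11.1% of all tested genes. With all libraries, the smallest p of the 9 partners belonged to the small MAF proteins MAFG, MAFF and MAFK and to ATF4. Their log2 fold changes were 0.21, 0.13, -0.096 and 0.23. Without control replicate 2 the values of MAFG, MAFF and MAFK were 0.32, 0.32 and 0.088, and without control replicate 3 those of MAFG, MAFF and ATF4 were 0.13, 0.0060 and 0.083. Of 8 cofactors and paralogs of EGR1 and the NR4A receptors 5 were tested. NR4A3, which was lower, was the only one under an unadjusted p of 0.05, beside 2.41% of all tested genes. The receptor partners RXRB and RXRA and the EGR1 corepressor NAB2 had log2 fold changes of 0.097, 0.035 and -0.061.

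Of 20 known AP-1 target genes 14 were tested, 12 with a log2 fold change above 0 and 2 below. The adjusted threshold was passed by 1 of them, beside 0.477% of all tested genes. The target past it was IL6, an inflammatory cytokine, which fell. The FPKM of IL6 was 7.20, 7.49 and 5.67 in control and 3.35, 4.27 and 3.78 in TAX-treated cells. The groups did not overlap, and the log2 fold change of IL6 was -0.69 (SE 0.11, adjusted p = 0.0297 from limma). It stayed under 0.05 in 6 of the 13 alternatives, with a range of 0.0149 to 0.208 and a value of 0.0735 without control replicate 2. With 1 library left out, IL6 passed only where that was control replicate 3. At an unadjusted p under 0.05, 5 targets were higher and 1 lower, beside 7.73% and 2.41% of all tested genes. Of the 14 targets, 6 were higher in every TAX library, beside 14.6% of all tested genes. Without control replicate 2 the counts at an unadjusted p under 0.05 were 9 higher and 1 lower, beside 11.1% and 2.18% of all tested genes. Among the genes higher in every TAX library was CCND1, which encodes cyclin D1, with 36.0, 34.2 and 34.5 FPKM in control libraries and 44.8, 47.1 and 45.3 FPKM under TAX. Its log2 fold change of 0.38 did not pass (adjusted p = 0.0731 from limma). SPHK1, a lipid kinase, had a log2 fold change of 0.34 (adjusted p = 0.145 from limma). The median of the 14 genes lay 0.16 above that of all tested genes. Of 11 EGR1 targets 10 were tested, with 0 past the adjusted threshold. At an unadjusted p under 0.05, 2 were lower, beside 2.41% of all tested genes, and the median of the 10 lay 0.090 below that of all genes. Without control replicate 2 the count of lower EGR1 targets was 1, beside 2.18% of all tested genes, and the median lay 0.011 below that of all genes. THBS1, an inhibitor of vessel growth, had 11.6, 12.8 and 8.86 FPKM in control libraries and 8.22, 7.81 and 8.47 FPKM under TAX. For THBS1 the log2 fold change was -0.38 (adjusted p = 0.280 from limma) and that of PDGFA, a growth factor, -0.54 (adjusted p = 0.380 from limma). The groups of PDGFA overlapped, and without control replicate 2 its value was -0.32. For TGFB1 and VEGFA it was 0.16 and -0.17.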

How the data were processed

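Bulk mRNA of 3 control and 3 TAX-treated DU145 libraries was analysed. The submitters' processing notes name HISAT2 2.2.0, StringTie 2.1.2 and GRCh38. The annotation, filters and use of strand are not given in the sources used here. The authors deposited 1 table of gene values per library, which are not labelled and were taken as FPKM from their values. FPKM hold no depth: the values of low genes showed no common step of 1 read, so the number of reads is unknown and no counting error can be given.

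Genes with at least 1 FPKM in 3 libraries (12359) were tested with limma 3.58.1 in R 4.3.3 on log2(FPKM + 1), with an intensity trend and Benjamini-Hochberg adjustment over all of them. FOSB, below the filter, was added in a second fit of 12360 genes. Single values were compared by exact two-sided permutation over libraries. Tested on simulated data of 12359 genes for TAX against control, the fit recovered 95.5% of 200 genes changed by 1.0 and 53.0% of those changed by 0.5 on the log2 scale.

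Named were all members, the 4 genes of smallest p of each list, and the 5 genes most alike to FOS, EGR1 and NR4A1. Some of the genes so chosen, and some markers, are not reported here. Members and lists were chosen with earlier results of these data known. Alternatives were a pseudocount of 0.1, a filter of 0.1 FPKM, no filter, quantile normalization, median centring, no trend, a replicate block, and leaving out each library. Promoters come from RefSeq and gene positions from GENCODE 29.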

Additional observations from a re-analysis of the deposited data

How the results depend on the processing

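Of 130 values of the 10 members under 13 alternatives, 120 kept their sign and side of the adjusted threshold, as did 282 of 312 values of the 24 list genes, and the cause of a change was not tested. The genes past the adjusted threshold, 59 of 12359, numbered 37 with a filter of 0.1 FPKM and 1 with no filter (20280 genes tested). They numbered 95 after quantile normalization, 96 after median centring, and 19 to 40 with 1 library left out. Members past the adjusted threshold numbered 2 after quantile normalization and 2 after median centring (EGR1 and NR4A1), and 0 to 1 with 1 library left out. Members at an unadjusted p under 0.05 numbered 3 to 7 with 1 library left out, 3 being without TAX replicate 2. The median of the tested members minus that of all genes was -0.45 to -0.26 with 1 library left out. Signs turned without control replicate 2 for FOSB (0.12), FOSL2 (0.048), JUN (0.22), MAFK (0.088), NAB2 (0.067) and VEGFA (0.066), and without TAX replicate 2 for JUN (0.017) and MAFK (0.053). RXRA turned to -0.021 after quantile normalization, -0.023 after median centring and -0.030 without control replicate 3. Same-numbered libraries did not deviate together (r = -0.117, -0.333 and -0.171). With 3 libraries in each group these r values cannot decide whether the numbers mark pairs. Without control replicate 3 the opposite extreme was reached by FOSB (-0.29), FOSL2 (-0.27), JUN (-0.35), MAFK (-0.22), NAB2 (-0.14) and VEGFA (-0.40), and without control replicate 2 by RXRA (0.11). With a replicate block 26 genes passed, and 0 members.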

Other observations

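The genes whose FPKM followed a member most closely over the 6 libraries were taken from 1451 tested genes with a range of at least 0.5 in log2(FPKM + 1), and r above 0.9 was reached by 65 of them for FOS, 55 for EGR1 and 60 for NR4A1. For FOS they were PELI1 (r = 0.9913), SAT1, AC022384.1, ARRDC3 and TRIM9 (r = 0.9798). For EGR1 they were CCDC39 (r = 0.9951), C3, MUC1, HHIPL2 and NFASC (r = 0.989), and for NR4A1 WFIKKN1 (r = 0.9963), C3, ELF3, SCD and MUC1 (r = 0.9839). C3, the complement component, stood on both of the latter lists, with 7.36, 11.2 and 5.49 FPKM in control and 3.64, 3.25 and 3.47 FPKM in TAX-treated cells. MUC1, a membrane mucin, was listed at 20.8, 27.0 and 16.7 FPKM in control and 12.7, 11.2 and 13.8 FPKM in TAX-treated cells. Both were highest in control replicate 2 and lower in all TAX libraries than in any control library, and neither passed the adjusted threshold (adjusted p = 0.0555 for C3 and 0.0862 for MUC1 from limma). With 6 libraries of 2 groups that differ, such r values are a description.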
